A study of Mus musculus with 14 samples.

Results

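The 10 genes described here encode proteins that bind, store or tag the messenger RNA of the mouse oocyte: Cpeb1, Ybx2, Zar1, Zar1l, Lsm14b, Ddx6, Patl2, Pabpn1l, Zfp36l2 and Dazl. They were chosen by name, out of 35389 gene identifiers in one deposited table and 35341 gene symbols in the other, and all 10 were found in both. Messenger RNA with a poly(A) tail was sequenced from mouse oocytes in 14 libraries, 2 for each of 7 groups. In the first table, SN oocytes (surrounded nucleolus, the later and largely silent state) and NSN oocytes (non-surrounded nucleolus, the earlier state that still transcribes) overexpressed either Rnaseh1 or mCherry. In the second table, called the rescue set by the labels, oocytes of no stated stage overexpressed Rnaseh1 together with Supt6, Rnaseh1 alone, or mCherry alone. All 7 groups thus carried an overexpressed gene, and mCherry, a red fluorescent protein, was the control in both tables. Rnaseh1 encodes an enzyme that degrades RNA that is paired with DNA, as in R-loops, and Supt6 encodes a histone chaperone of elongating RNA polymerase II. Strain, age, the number of oocytes per library and the way the genes were introduced are not given in the sources used here. Nothing says that both libraries of a group come from separate animals, and p-values therefore reflect only the spread among these libraries, which may be technical.

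A growing oocyte makes far more messenger RNA than it translates at once. Much of it is held in the cytoplasm in particles of RNA and protein, is stable and translationally quiet there, and is polyadenylated and translated, or stripped of its tail and degraded, once meiosis resumes and transcription has stopped. CPEB1 binds the cytoplasmic polyadenylation element in 3′ untranslated regions, and can hold a message silent or promote its polyadenylation. YBX2 coats messenger RNA broadly in germ cells, ZAR1 and its paralog ZAR1L are zinc-finger proteins of the same stored pool, and LSM14B, DDX6 and PATL2 belong to repressing particles. DAZL promotes the translation of stored messages, PABPN1L binds poly(A) tails and works with the deadenylation machinery, and ZFP36L2 binds AU-rich elements and favours decay.

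Values are transcripts per 1000000 transcripts (TPM), which are scaled to transcript length, so that levels may be set side by side between genes within a library. This scaling does not remove a trend with GC content, which is described below. TPM keeps no read depth, so no counting error can be given. In such bulk libraries a smaller share of one message and a larger share of the others cannot be told apart, and neither can fewer cells of a type and less RNA per cell. Because RNA with a poly(A) tail was sequenced, a change in the amount of a message and a change in its tail cannot be told apart either. Between 10036 and 12230 genes reached 1 TPM per library. Rnaseh1 stood at 2270 and 2017 TPM with Rnaseh1 plus Supt6 and at 1243 and 625 TPM with Rnaseh1 alone, against 125 and 114 TPM with mCherry in the rescue set. In SN oocytes it stood at 1361 and 1083 TPM with Rnaseh1, against 81.0 and 131 TPM with mCherry, and in NSN oocytes at 745 and 229 TPM, against 137 and 108 TPM. Supt6 stood at 28.2 and 20.97 TPM where it was overexpressed, against 3.01 and 2.55 TPM with Rnaseh1 alone and 3.28 and 3.14 TPM with mCherry. Summed over 15 markers of granulosa and cumulus cells, which surround the oocyte in the follicle, the level ran from 24.9 to 55.5 TPM over the 14 libraries, most of it from Cyp19a1, and the granulosa genes Amh and Foxl2 were listed at 0 in every library. Summed over the oocyte markers measured (10 in the first table, 9 in the rescue set), it ran from 5450 to 28086 TPM. NSN Rnaseh1 replicate 2 and SN mCherry replicate 2 stood apart from the other libraries of the first table, as the members themselves show further on.

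The 10 messages covered a wide range of levels. Dazl ran from 197 to 539 TPM and Zar1 from 189 to 1609 TPM over the 14 libraries, and their lowest percentiles among the tested genes of a library were 92.8 and 92.7. Pabpn1l covered the widest range, from 39.9 to 3013 TPM with a median of 809 TPM. Zar1l (67.2 to 836 TPM) and Cpeb1 (70.3 to 615 TPM) followed, then Ybx2 (28.9 to 92.1 TPM), Lsm14b (18.8 to 126 TPM) and Patl2 (7.20 to 48.6 TPM). Ddx6 was measured at only 0.35 to 1.73 TPM and Zfp36l2 at 0.18 to 1.89 TPM. Zfp36l2 did not reach 1 TPM in 2 libraries of either table and was not tested, so 9 of the 10 members were tested in each table. Reads from Zfp36l2 may also come from an antisense gene model that shares 105 exonic bases with it, since the sources used here do not say whether strand was used in counting.

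**Figure D1:**
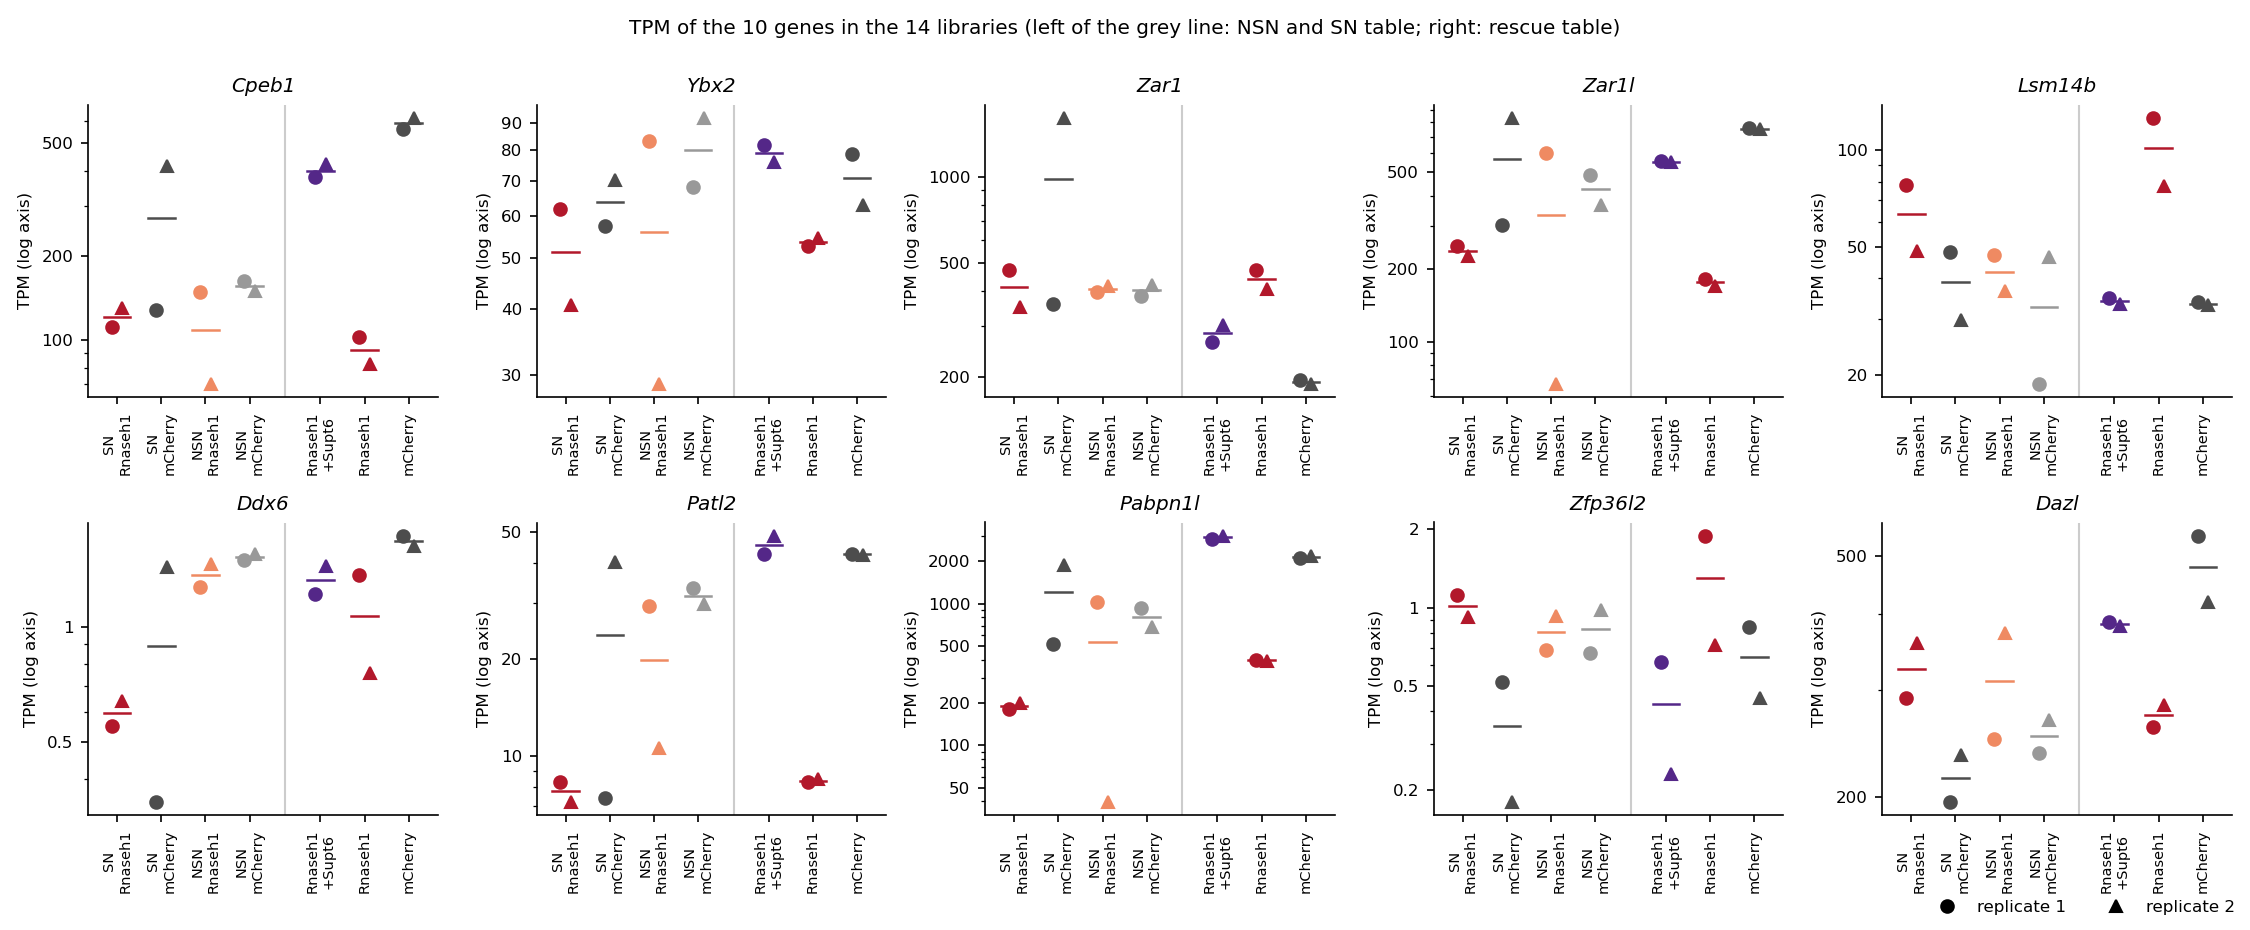
TPM (log axis) of each of the 10 genes by group, with circles for replicate 1, triangles for replicate 2 and a line at the mean of the 2 libraries; the NSN and SN table stands left of the grey line and the rescue set right of it. In the rescue set, Cpeb1, Zar1l, Patl2 and Pabpn1l are low in both Rnaseh1 libraries (Pabpn1l at 399 and 394 TPM) and high in the 4 others (2091 to 3013 TPM), while Zar1 and Lsm14b have their highest values there.

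The members did not share one sequence feature at the 3′ end. Cytoplasmic polyadenylation elements were searched as TTTTAT or TTTTAAT, neither of which contains the other, on the messenger strand of the annotated 3′ untranslated region of the longest coding transcript (GENCODE M21, GRCm38). Dazl held 6 matches, Ddx6 7, Cpeb1 4, Zfp36l2 4, Lsm14b 2 and Ybx2 1, and no match lay in Zar1, Zar1l, Patl2 or Pabpn1l. Such counts rise with the length of the region: of transcripts with a region at least as long, 84.1% held a match in a window of the length of Dazl, 75.5% at the length of Cpeb1, 72.6% at the length of Lsm14b, 43.3% at the length of Ybx2, 40.4% at the length of Patl2, 33.3% at the length of Pabpn1l and 22.8% at the length of Zar1. At the lengths of Ddx6 and Zfp36l2 this share was 97.4% and 83.8%. The region annotated for Zar1l has only 14 bases. Of all 19730 transcripts with at least 100 bases, 17.8% had a match in the last 100 bases, and among the members this was so only for Ybx2, at 56 bases from the end. The match nearest the 3′ end is shown for 4 members that differ in their response below, with the element in capitals and coordinates on GRCm38.
Cpeb1 (chr7:81347257-81347286, minus strand): cttgacttttctTTTTAATttaacgattac
Lsm14b (chr2:180034634-180034663, plus strand): aatggaaccaaaTTTTATttggcacatgtg
Ybx2 (chr11:69941532-69941561, plus strand): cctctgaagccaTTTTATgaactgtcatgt
Dazl (chr17:50279752-50279781, minus strand): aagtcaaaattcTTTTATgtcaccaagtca

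The rescue set gave the clearest picture of these messages. With Rnaseh1 alone, 6 members fell and 2 rose against mCherry: Cpeb1, Zar1l, Patl2 and Pabpn1l lost most of their level, Dazl and Ybx2 lost less, and Zar1 and Lsm14b gained. The test was limma on log2(TPM + 1) over all 12859 genes tested, with a Benjamini-Hochberg adjusted p under 0.05, and Ddx6 did not pass. The background was high, since 66.5% of all tested genes passed, 20.3% higher and 46.2% lower, and the median log2 fold change of all tested genes was -0.52. The median of the 9 members was -0.80, not far from it, so that the 6 that fell took the more common direction of these libraries and the 2 that rose the rarer one.

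Cpeb1, the element-binding protein, stood at 103 and 82.2 TPM with Rnaseh1, against 562 and 615 TPM with mCherry. The groups were far apart, with an estimated log2 fold change of -2.66 (SE 0.12, adjusted p = 3.1e-06, edge of the 95% interval nearest 0 at -2.37). Pabpn1l, the poly(A)-binding protein, stood at 399 and 394 TPM with Rnaseh1, against 2091 and 2175 TPM with mCherry. It was the member with the tightest estimate, at -2.42 (SE 0.063, adjusted p = 6.9e-07). Patl2, a translational regulator of the oocyte that is needed for maturation in mice, stood at 8.26 and 8.47 TPM with Rnaseh1, against 42.8 and 42.4 TPM with mCherry, and its log2 fold change was -2.22 (SE 0.14, adjusted p = 1e-05).

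Zar1 and Zar1l, the pair of paralogs, moved in opposite directions. Zar1l stood at 182 and 170.1 TPM with Rnaseh1, against 761.5 and 749 TPM with mCherry, and fell by 2.10 on the log2 scale (SE 0.072, adjusted p = 1.1e-06). Zar1 stood at 473 and 407 TPM with Rnaseh1, against 195 and 189 TPM with mCherry, and had an estimated log2 fold change of 1.19 (SE 0.11, adjusted p = 5.7e-05). Within a library, Zar1 thus had the higher TPM of the pair in both Rnaseh1 libraries and Zar1l the higher in both mCherry libraries. Their transcripts differ in GC content (62.1% and 52.4%), and the part of this in their order was not tested. Lsm14b, whose protein belongs to repressing particles, stood at 126 and 77.6 TPM with Rnaseh1, against 33.7 and 33.0 TPM with mCherry, and its estimate was 1.54 (SE 0.21, adjusted p = 0.00057). Its Rnaseh1 libraries differed from each other more than its mCherry libraries did, yet both lay above them.

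The remaining members moved less. Dazl stood at 261 and 284 TPM with Rnaseh1, against 539 and 419.5 TPM with mCherry (log2 fold change -0.80, SE 0.12, adjusted p = 0.00093). Ybx2 stood at 52.8 and 54.6 TPM with Rnaseh1, against 78.5 and 63.0 TPM with mCherry, a change of -0.38 (SE 0.13, adjusted p = 0.035) that was smaller than the median shift of all genes. The call for Ybx2 was lost without a filter on low values (adjusted p = 0.059), with only these 2 groups in the fit (adjusted p = 0.066) and with library weights (adjusted p = 0.068). Of the 6 fits that left out a library, it passed only in the one without mCherry replicate 2. Ddx6, the helicase, stood at 1.37 and 0.76 TPM with Rnaseh1, against 1.73 and 1.63 TPM with mCherry, and its estimate of -0.39 (SE 0.26, adjusted p = 0.22) had a 95% interval from -1.01 to 0.23. Zfp36l2 stood at 1.89 and 0.72 TPM with Rnaseh1, against 0.84 and 0.45 TPM with mCherry, and these groups overlapped.

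The general shift of the genes bears on the smaller of these changes. Centring each library on the median of its well-expressed genes moved the median fold change of all tested genes to 0.064, quantile normalization moved it to 0.051, and removal of a trend with transcript GC content moved it to -0.019. Relative to the median of all genes, Cpeb1 stood at -2.14, Pabpn1l at -1.90, Patl2 at -1.70, Zar1l at -1.58 and Dazl at -0.28, while Ddx6 stood at 0.13, Ybx2 at 0.14, Zar1 at 1.71 and Lsm14b at 2.06. Cpeb1, Zar1l, Patl2 and Pabpn1l stayed lower and past the threshold under all 3 scalings, and Zar1 and Lsm14b stayed higher and past it. The sizes changed, however. After the GC trend was removed, Cpeb1 stood at -2.25, Patl2 at -1.53, Zar1l at -1.03 and Pabpn1l at -0.93. Zar1 then stood at 2.91 and Lsm14b at 2.20. Dazl did not pass with centring (-0.22, adjusted p = 0.22). It did pass with quantile normalization (-0.96) and, further from 0, after the GC trend was removed (-1.43, adjusted p = 0.00012). Ybx2 turned to 0.20 with centring (adjusted p = 0.27) and to 0.074 with quantile normalization (adjusted p = 0.68), and neither passed. The count of members went to 2 higher and 4 lower with centring, 2 and 5 with quantile normalization, and 3 and 5 after the GC trend was removed, and the calls over all genes went to 4297 higher and 3894 lower, 4223 and 3958, and 3476 and 3634, against 2608 and 5945 in the values as deposited.

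**Figure D2:**
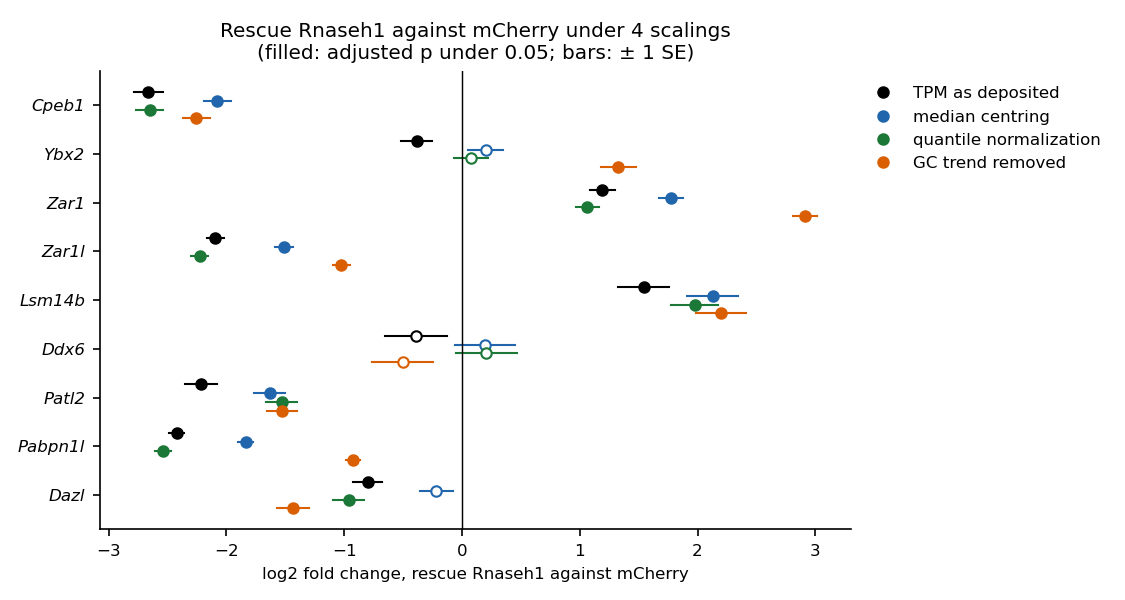
Log2 fold change of Rnaseh1 against mCherry in the rescue set for the 9 tested members under 4 scalings, with bars of ± 1 SE and filled points past an adjusted p of 0.05. Cpeb1, Zar1l, Patl2 and Pabpn1l stay left of 0 and Zar1 and Lsm14b right of it, while Ybx2 moves from -0.38 as deposited to 1.33 after the GC trend is removed.

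GC content of the transcript moved with the fold changes. Across 12603 genes, the rank correlation between GC content and the Rnaseh1 fold change in the rescue set was -0.51, a description over genes that share the same libraries. For Rnaseh1 plus Supt6 it was 0.46 against Rnaseh1 and -0.32 against mCherry. In the first table, over 12360 genes, it was -0.46 (SN) and -0.30 (NSN) for Rnaseh1 against mCherry. For SN against NSN oocytes it was 0.25 with mCherry and -0.098 with Rnaseh1. Ybx2 (63.4% GC, above 98.9% of coding genes) and Zar1 (62.1%, above 97.9%) are among the members richest in GC, and Dazl is the poorest, at 37.0%. In Rnaseh1 against mCherry of the rescue set, Zar1 stood at 1.19 in the values as deposited and at 2.91 after the trend was removed. Ybx2, which was lower in the values as deposited, stood at 1.33 (SE 0.15, adjusted p = 0.0003) after the trend was removed. Cpeb1 at 48.2%, Lsm14b at 49.8% and Patl2 at 50.1% lie near the middle, with Zar1l at 52.4% and Pabpn1l at 55.8%. The part of GC content in the changes of single members was not tested further.

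With Supt6 added to Rnaseh1, 6 members rose and 2 fell against Rnaseh1 alone, each of the 8 in the direction opposite to the one it had against mCherry. Both comparisons share the Rnaseh1 libraries, which ties their directions to each other. The median of all tested genes turned as well, from -0.52 to 0.44, and the share of genes that turned was not counted. Of all tested genes 58.9% passed, 41.6% higher and 17.4% lower, and the median log2 fold change was 0.44 over all genes and 0.55 over the members. Cpeb1 stood at 378 and 421 TPM with Rnaseh1 plus Supt6, against 103 and 82.2 TPM with Rnaseh1 alone (2.10, SE 0.12, adjusted p = 1.2e-05). Pabpn1l stood at 2877 and 3013 TPM, against 399 and 394 TPM (2.89, SE 0.063, adjusted p = 8.9e-07), a level 7.42 times as high. All libraries of these groups were clearly apart.

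Patl2, at 42.7 and 48.6 TPM with Rnaseh1 plus Supt6 against 8.26 and 8.47 TPM with Rnaseh1 alone, had an estimated log2 fold change of 2.32 (SE 0.14, adjusted p = 1.2e-05). Zar1l stood at 553 and 547 TPM, against 182 and 170.1 TPM (1.64, SE 0.072, adjusted p = 3.7e-06). Its paralog Zar1 was lower, at 265 and 303 TPM with Rnaseh1 plus Supt6, against 473 and 407 TPM with Rnaseh1 alone (-0.63, SE 0.11, adjusted p = 0.0019). Zar1l was therefore again the higher of the pair in both libraries with Supt6. Lsm14b stood at 34.8 and 33.3 TPM, against 126 and 77.6 TPM (-1.51, SE 0.21, adjusted p = 0.0008).

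Dazl (0.50, SE 0.12, adjusted p = 0.01) and Ybx2 (0.55, SE 0.13, adjusted p = 0.0096) rose by about as much as the median gene. Dazl did not pass without Rnaseh1 replicate 1 or without either library with Supt6 (0.44 to 0.56 over the 6 fits with a library left out), and Ybx2 did not pass without replicate 1 with Supt6 (0.49 to 0.60). Relative to the median of all genes they stood at 0.060 and 0.10. With median centring they were at -0.012 and 0.033 and did not pass, and after the GC trend was removed Ybx2 was lower, at -0.74 (adjusted p = 0.0055). Dazl stood at 389 and 383 TPM with Rnaseh1 plus Supt6, against 261 and 284 TPM with Rnaseh1 alone. Ybx2 stood at 81.9 and 76.0 TPM, against 52.8 and 54.6 TPM. Ddx6 did not pass, at 1.22 and 1.44 TPM, against 1.37 and 0.76 TPM (0.19, SE 0.26, adjusted p = 0.56). Median centring left 4 members higher and 2 lower, and removal of the GC trend left 5 and 3, while the calls over all genes went from 5343 higher and 2235 lower as deposited to 3370 and 3855 with centring. After that removal, Pabpn1l stood at 1.75, Cpeb1 at 1.73, Patl2 at 1.71 and Zar1l at 0.76. Zar1 then stood at -1.91 and Lsm14b at -2.09.

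Against mCherry, the oocytes with Rnaseh1 plus Supt6 lay much closer. Here 4 of the 9 tested members passed, 2 higher and 2 lower, beside 13.3% of all tested genes (5.71% higher and 7.6% lower) and a median log2 fold change of -0.038. Cpeb1 stood at 378 and 421 TPM with Rnaseh1 plus Supt6, against 562 and 615 TPM with mCherry (-0.56, SE 0.12, adjusted p = 0.031). Zar1l, at 553 and 547 TPM against 761.5 and 749 TPM, had an estimated log2 fold change of -0.46 (SE 0.072, adjusted p = 0.012). Zar1 was higher, at 265 and 303 TPM against 195 and 189 TPM (0.56, SE 0.11, adjusted p = 0.019), and so was Pabpn1l, at 2877 and 3013 TPM against 2091 and 2175 TPM (0.47, SE 0.063, adjusted p = 0.0074). Cpeb1, Zar1l and Zar1 thus lay between the levels of Rnaseh1 alone and mCherry, and Pabpn1l lay above both. None of the 4 passed when either library with Rnaseh1 plus Supt6 or either mCherry library was left out, although the fold changes stayed at -0.63 to -0.48 for Cpeb1, -0.47 to -0.44 for Zar1l, 0.47 to 0.66 for Zar1 and 0.43 to 0.50 for Pabpn1l. Without a filter on low values, Cpeb1 (adjusted p = 0.085) and Zar1 (adjusted p = 0.055) did not pass. Removal of the GC trend left 3 members higher and 1 lower: Zar1l no longer passed (-0.26, adjusted p = 0.069) and Ybx2 did, just under the threshold (0.59, adjusted p = 0.0499). The calls over all genes, 734 higher and 977 lower as deposited, became 912 and 505, or 921 and 809 with median centring.

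For the other members the interval of the difference from mCherry is what the data give. It ran from -0.23 to 0.42 for Patl2 (0.095), from -0.48 to 0.54 for Lsm14b (0.030), from -0.15 to 0.47 for Ybx2 (0.16), from -0.82 to 0.42 for Ddx6 (-0.20) and from -0.59 to -0.010 for Dazl (-0.30, adjusted p = 0.16). For Patl2, a difference from mCherry as large as that of Rnaseh1 alone lies outside this interval. In order of level, Patl2 was low with Rnaseh1 alone, while its groups with Rnaseh1 plus Supt6 and with mCherry overlapped. Lsm14b was high with Rnaseh1 alone, and its values overlapped between the other groups (34.8 and 33.3 TPM with Rnaseh1 plus Supt6, 33.7 and 33.0 TPM with mCherry).

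**Figure D3:**
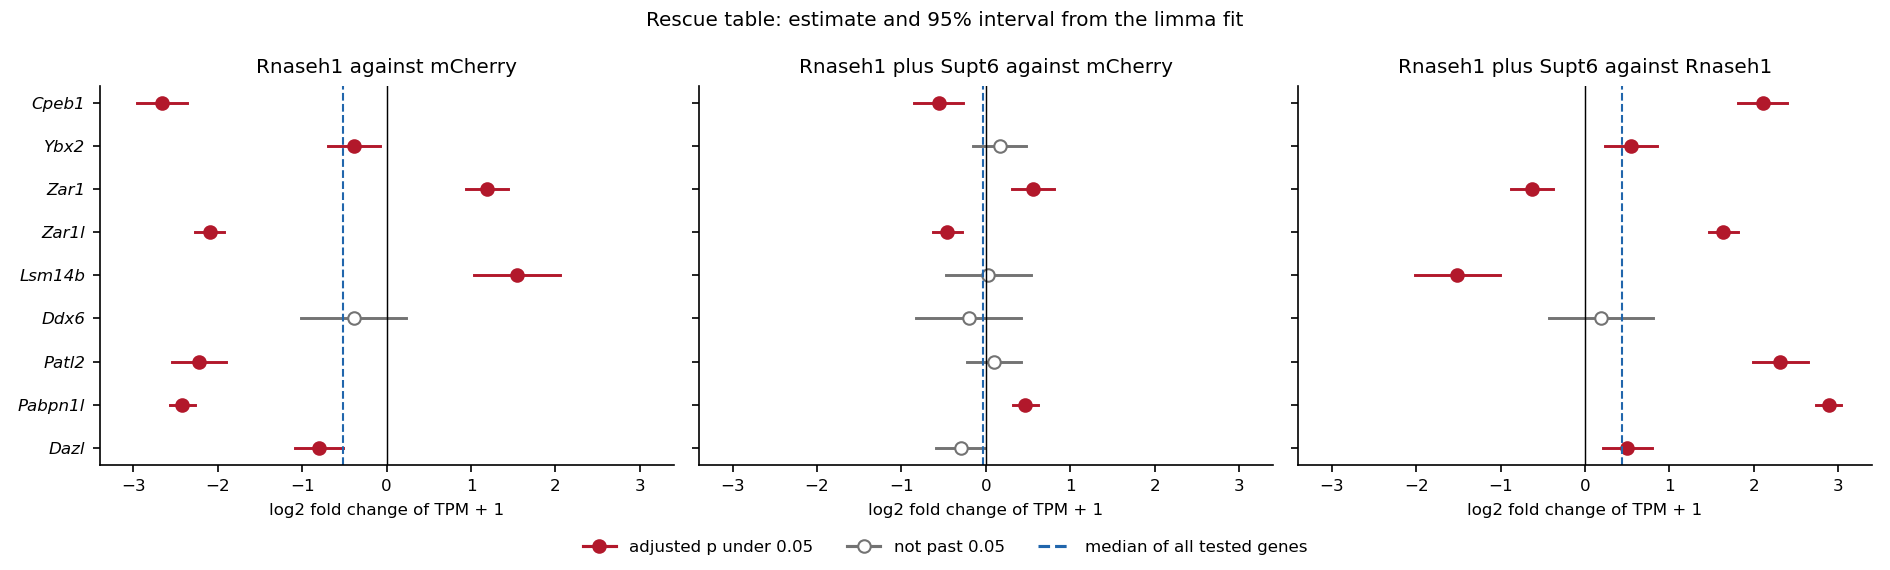
Log2 fold change of TPM + 1 for the 9 tested members in the 3 comparisons of the rescue set, with 95% intervals from the limma fit, filled points past an adjusted p of 0.05 and a dashed line at the median of all tested genes. Pabpn1l, for example, lies at -2.42, 0.47 and 2.89 from the left panel to the right one.

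Summed over the 10 members, the level was 4624 and 4827 TPM with Rnaseh1 plus Supt6 and 1609 and 1479 TPM with Rnaseh1 alone, against 4306 and 4288 TPM with mCherry. Pabpn1l was the largest part of it with Rnaseh1 plus Supt6 (2877 and 3013 TPM) and with mCherry (2091 and 2175 TPM). The sum therefore does not speak for each member. The summed level of 9 oocyte markers was likewise lowest with Rnaseh1 alone. It was 16957 to 17796 TPM with Rnaseh1 plus Supt6 and 5450 to 5486 TPM with Rnaseh1 alone, against 17391 to 17951 TPM with mCherry. Of these 9 markers, 7 fell and 0 rose with Rnaseh1 alone against mCherry, beside 46.2% and 20.3% of all tested genes. The median of the markers was -1.14, beside -0.52 for all genes. The part of this shift in the members' changes was not tested. Of the granulosa and cumulus markers, 3 of 15 were tested and 0 passed in each comparison of the rescue set (0 also at an unadjusted p under 0.05), with summed levels of 49.5 to 54.1 TPM, 45.4 to 54.2 TPM and 53.3 to 55.4 TPM in the same order of groups.

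The start sites of 4 members that held their direction under each scaling are shown: Zar1l, Patl2 and Pabpn1l, which fell with Rnaseh1, and Lsm14b, which rose. Cpeb1, which also fell, and Zar1, which also rose, held their direction too and are not shown. Each window is the 250 bases before the RefSeq start on GRCm38.p6, written 5′ to 3′ on the gene's strand. Capitals mark matches, on either strand, to the E-box CANNTG, to TAATTG and TAATTA, which are bound by homeodomain factors such as NOBOX of the oocyte, to TATAAA and to CCAAT, and no matches overlap in these windows.
Zar1l (chr5:150518160-150518409, minus strand): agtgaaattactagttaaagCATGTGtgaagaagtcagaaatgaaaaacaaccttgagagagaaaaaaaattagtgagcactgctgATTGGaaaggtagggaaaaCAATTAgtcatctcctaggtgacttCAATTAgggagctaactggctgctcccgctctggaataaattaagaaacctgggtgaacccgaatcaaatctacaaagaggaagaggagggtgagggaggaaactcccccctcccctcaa
Patl2 (chr2:122186190-122186439, minus strand): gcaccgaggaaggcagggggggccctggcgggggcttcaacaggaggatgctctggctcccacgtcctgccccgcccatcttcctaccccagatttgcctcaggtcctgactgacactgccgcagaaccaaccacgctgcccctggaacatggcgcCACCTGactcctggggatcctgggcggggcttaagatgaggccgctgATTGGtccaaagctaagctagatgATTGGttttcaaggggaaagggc
Pabpn1l (chr8:122622736-122622985, minus strand): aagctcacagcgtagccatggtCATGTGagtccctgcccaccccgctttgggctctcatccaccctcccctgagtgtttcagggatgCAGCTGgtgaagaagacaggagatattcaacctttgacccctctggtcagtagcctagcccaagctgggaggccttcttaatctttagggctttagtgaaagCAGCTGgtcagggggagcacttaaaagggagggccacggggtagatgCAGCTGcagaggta
Lsm14b (chr2:180024737-180024986, plus strand): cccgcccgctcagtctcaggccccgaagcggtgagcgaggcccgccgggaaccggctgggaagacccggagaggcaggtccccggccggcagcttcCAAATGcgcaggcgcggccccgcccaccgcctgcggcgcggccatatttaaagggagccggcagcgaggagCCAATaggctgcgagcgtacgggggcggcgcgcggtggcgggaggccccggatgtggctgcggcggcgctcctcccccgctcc

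Pabpn1l held 4 E-boxes, and Zar1l, Patl2 and Lsm14b 1 each, a motif that 66.2% of 32851 promoter windows of this length hold. Zar1l held 2 matches to TAATTG (as CAATTA), which 7.17% of windows hold, and none of the 3 others did. CCAAT matches numbered 2 in Patl2, 1 in Zar1l and 1 in Lsm14b, with 33.9% of windows holding one. No match to TAATTA or TATAAA was in these 4 windows (4.84% and 12.4% of all windows). The windows not shown held 1 E-box and 1 match to TATAAA for Cpeb1 (74.0% GC) and 2 E-boxes for Zar1 (55.6% GC). GC content of the windows shown was 42.8% for Zar1l, 62.4% for Patl2, 55.6% for Pabpn1l and 76.0% for Lsm14b. The 3 shown that fell thus did not share a composition, and no motif was common to them that Lsm14b lacked. The genes lie on different chromosomes or far apart: Zar1l at chr5:150507055-150518164, Zar1 at chr5:72576806-72581254, Patl2 at chr2:122120108-122186189, Lsm14b at chr2:180024987-180035465, Pabpn1l at chr8:122619471-122622739 and Cpeb1 at chr7:81347026-81455465 (GRCm38).

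Other proteins of the same particles were described from a list of 52, of which 44 were tested in the rescue set. With Rnaseh1 alone against mCherry, 8 rose and 21 fell, beside 20.3% and 46.2% of all tested genes. The median log2 fold change of the 44 was -0.61, beside -0.52 for all genes. Among those that rose were Lsm14a (1.19, adjusted p = 2.3e-05), the paralog of Lsm14b, the Y-box genes Ybx1 (1.49, adjusted p = 5.4e-05) and Ybx3 (1.01, adjusted p = 0.0004), and Eif4e (0.78, adjusted p = 7.4e-05), the cap-binding protein. Among those that fell were Atxn2l (-4.34), a stress granule component, the cytoplasmic poly(A)-binding protein Pabpc4 (-3.95), the double-stranded RNA-binding protein Stau1 (-1.70) and Fxr2 (-3.14), a relative of FMR1, with adjusted p-values of at most 1.7e-05. Lsm14a stood at 446 and 477 TPM with Rnaseh1 alone, against 207 and 196 TPM with mCherry, so the LSM14 paralogs were both higher, unlike the ZAR1 pair.

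With Rnaseh1 plus Supt6 against Rnaseh1 alone, 16 of these 44 rose and 9 fell, beside 41.6% and 17.4% of all tested genes (median 0.42, all genes 0.44). The higher were led by Atxn2l (3.54), Pabpc4 (3.18), the deadenylase gene Parn (2.16) and Nanos2 (1.95). The lower were led by Lsm14a (-1.18), Ybx1 (-1.12), the nuclear poly(A)-binding protein Pabpn1 (-1.30) and Ybx3 (-0.92). Against mCherry, 1 rose (Eif4e, 0.31, adjusted p = 0.036) and 8 fell, beside 5.71% and 7.6% of all tested genes (median -0.14, all genes -0.038). Among those that fell were Pabpc1l (-1.35, adjusted p = 0.0054), Stau1 (-0.72), Atxn2l (-0.81) and Fxr2 (-1.10). Pabpc1l, the embryonic poly(A)-binding protein, stood at 72.9 and 78.1 TPM with Rnaseh1 plus Supt6 and at 49.3 and 35.1 TPM with Rnaseh1 alone, against 189 and 199.5 TPM with mCherry. Its level with Supt6 was thus nearer to that of Rnaseh1 alone, unlike the level of Pabpn1l.

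Messages known to be stored under these proteins were followed in a list of 12, which shares Dcp1a and Dcp2 with the list of 52. Their levels are those of RNA with a poly(A) tail, so amount and tail length cannot be told apart. With Rnaseh1 alone against mCherry 0 rose and 7 fell, beside 20.3% and 46.2% of all tested genes. The median was -0.66, beside -0.52 for all genes. Mos (-4.31), the kinase that holds the egg in metaphase, Tex19.1 (-4.25), Plat (-2.23), a classical target of cytoplasmic polyadenylation, and Btg4 (-0.95), the adaptor of the deadenylase, had the smallest p. Mos stood at 45.1 and 41.5 TPM with Rnaseh1 alone, against 896 and 863 TPM with mCherry. With Rnaseh1 plus Supt6 it stood at 678 and 672 TPM. Against Rnaseh1 alone, 8 of the 12 rose with Supt6 and 1, Orc6 (-0.24), fell, beside 41.6% and 17.4% of all tested genes (median 0.83, all genes 0.44). Mos stood at 3.93, Tex19.1 at 3.68, Plat at 1.85 and Btg4 at 0.84. Against mCherry, Slbp (0.66) and Tpx2 (0.48) rose and Mos (-0.38) and Tex19.1 (-0.57) fell, at a median of -0.16. Of all tested genes 5.71% rose and 7.6% fell there, at a median of -0.038.

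In the NSN and SN table no gene passed the adjusted threshold in any comparison, so the background was 0% and 0 of the 9 tested members passed. At an unadjusted p under 0.05, limma had 859 of 12736 genes for Rnaseh1 against mCherry in SN oocytes (6.74%), 353 in NSN oocytes (2.77%), 328 for SN against NSN oocytes with mCherry (2.58%), 584 for SN against NSN oocytes with Rnaseh1 (4.59%) and 288 for the interaction of stage and Rnaseh1 (2.26%). In each of the 5, 0 members were among them. The members' values are given below as levels and estimates with their errors.

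The libraries of 2 groups differed strongly, in these genes and over all genes. In NSN oocytes with Rnaseh1, Pabpn1l stood at 1023 TPM in replicate 1 and 39.9 TPM in replicate 2, a difference of -4.64 on the log2(TPM + 1) scale that only 0.5% of tested genes exceeded in size. Zar1l stood at 599 and 67.2 TPM there (-3.14), Ybx2 at 83.1 and 28.9 TPM, Patl2 at 29.3 and 10.6 TPM and Cpeb1 at 148 and 70.3 TPM. For Ybx2, Patl2 and Cpeb1, 26.9% to 42.6% of all tested genes differed by more, and Dazl, Zar1, Ddx6 and Lsm14b differed less than these. In SN oocytes with mCherry, replicate 2 was instead the higher one for 8 of the 9 members, all but Lsm14b. Such a direction was common there, since Ybx2 (0.29) and Dazl (0.25) lay near the middle of all tested genes (percentiles 52.2 and 50.7). Zar1 stood at 358 and 1609 TPM, Patl2 at 7.38 and 40.3 TPM, Pabpn1l at 519 and 1886 TPM, Cpeb1 at 128 and 414 TPM and Zar1l at 301 and 836 TPM. For Patl2, Zar1, Pabpn1l, Cpeb1 and Zar1l, 4.3% to 16.0% of all tested genes differed by more. The SD over all tested genes of the difference between replicates reached 1.28 in NSN Rnaseh1 and 1.05 in SN mCherry, compared with 0.62 to 0.69 in the remaining groups of this table and 0.35 to 0.57 in the rescue set. The summed level of the members was 2576 TPM and 1046 TPM in the NSN Rnaseh1 libraries and 1616 TPM and 5120 TPM in the SN mCherry libraries, and that of the 10 oocyte markers differed the same way, at 17105 and 6496 TPM in the NSN Rnaseh1 libraries and 9407 and 28086 TPM in the SN mCherry libraries. Replicate differences also ran with GC content, at a rank correlation of -0.42 and 0.42 in these groups. The part of these in the members' values was not tested.

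**Figure D4:**
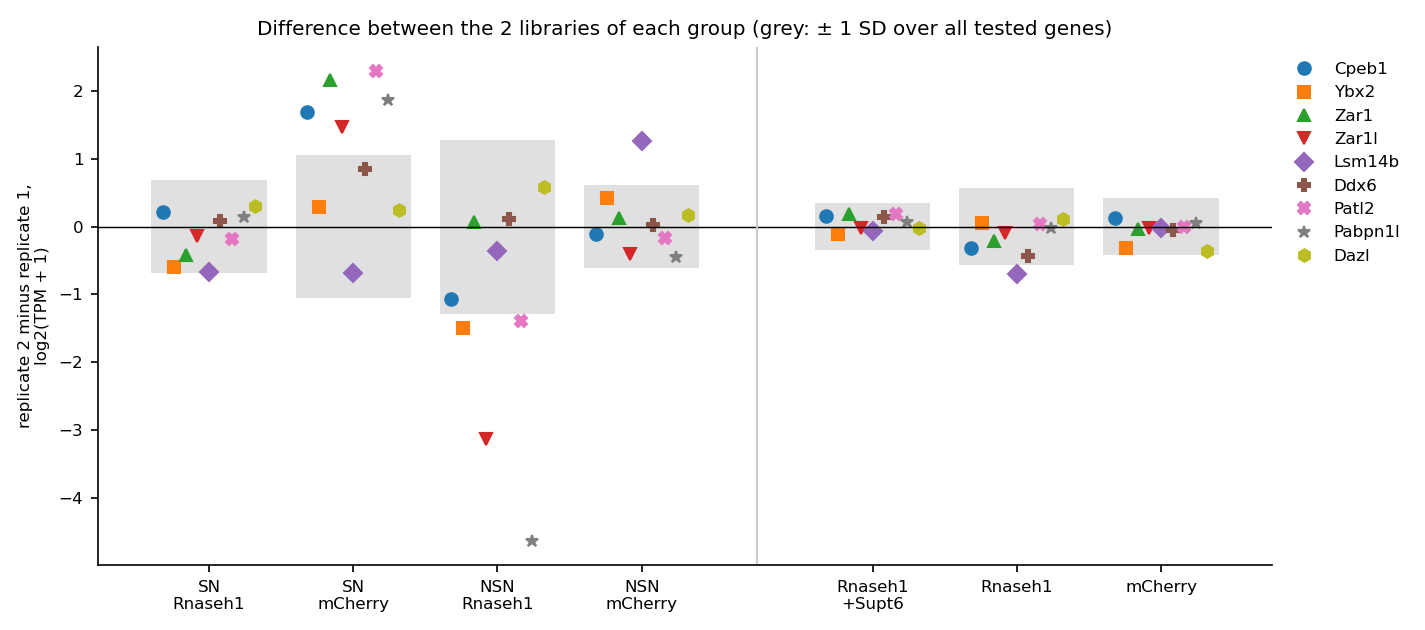
Replicate 2 minus replicate 1, on the log2(TPM + 1) scale, for the 9 tested members in each of the 7 groups, with a grey box of ± 1 SD over all tested genes. Pabpn1l lies at -4.64 in NSN Rnaseh1, and Patl2, Zar1, Pabpn1l, Cpeb1 and Zar1l lie between 1.47 and 2.30 in SN mCherry, outside the box. In the rescue set the members lie inside the box except Lsm14b, at -0.70 in the Rnaseh1 group.

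In SN oocytes, the later state, 4 members had libraries that did not overlap between Rnaseh1 and mCherry: 2 higher with Rnaseh1 (18.9% of all tested genes) and 2 lower (31.7%). Pabpn1l stood at 179 and 198 TPM with Rnaseh1, against 519 and 1886 TPM with mCherry, with the largest estimate of the members, -2.39 (SE 1.33, adjusted p = 0.61, 95% interval from -5.50 to 0.73). Zar1l stood at 248.6 and 226 TPM, against 301 and 836 TPM (-1.08, SE 0.95). Dazl was at 291.5 and 359 TPM with Rnaseh1, against 197 and 234 TPM with mCherry (0.59, SE 0.34, adjusted p = 0.61), and Lsm14b at 78.2 and 48.6 TPM, against 48.4 and 29.7 TPM (0.69, SE 0.52). The mCherry libraries of Pabpn1l and Zar1l lay far apart, and those of Dazl lay close together.

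Cpeb1 in SN oocytes stood at 112 and 130.1 TPM with Rnaseh1, against 128 and 414 TPM with mCherry (-0.93, SE 0.59), so the lower mCherry library lay within the range of the Rnaseh1 libraries. Patl2 stood at 8.30 and 7.20 TPM, against 7.38 and 40.3 TPM (-1.09, SE 0.78). Zar1, at 473 and 352 TPM against 358 and 1609 TPM (-0.89, SE 0.64), likewise rested on the higher mCherry library. Without SN mCherry replicate 2, the estimates of Zar1 and Patl2 turned to 0.19 and 0.059, and those of Cpeb1 and Pabpn1l became -0.082 and -1.46. Ybx2 (61.8 and 40.7 TPM against 57.5 and 70.35 TPM) and Ddx6 (0.55 and 0.64 TPM against 0.35 and 1.43 TPM) stood at -0.34 (SE 0.53) and -0.18 (SE 0.43). Zfp36l2 was listed at 1.12 and 0.92 TPM with Rnaseh1, against 0.52 and 0.18 TPM with mCherry.

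In NSN oocytes, estimates of the Rnaseh1 effect ran from -1.97 for Pabpn1l (SE 1.33, adjusted p = 0.76) to 0.47 for Lsm14b (SE 0.52). Pabpn1l stood at 1023 and 39.9 TPM with Rnaseh1, against 933 and 685 TPM with mCherry, and Zar1l at 599 and 67.2 TPM, against 484 and 364 TPM (-1.06, SE 0.95). In both, the mCherry libraries lay between the Rnaseh1 libraries. Without NSN Rnaseh1 replicate 1, Pabpn1l (-4.29) and Zar1l (-2.63) passed the threshold, as did 1103 genes in all (8.66%). Without replicate 2 they stood at 0.35 and 0.51, and no gene passed.

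Zar1, at 396 and 417 TPM with Rnaseh1 against 384 and 419 TPM with mCherry in NSN oocytes, was the member with the closest libraries (0.021, SE 0.64, 95% interval from -1.47 to 1.51). Patl2 stood at 29.3 and 10.6 TPM, against 33.5 and 29.8 TPM (-0.80, SE 0.78), and Cpeb1 at 148 and 70.3 TPM, against 162 and 149.7 TPM (-0.60, SE 0.59). For both, the libraries did not overlap and were lower with Rnaseh1, as for Ddx6 at 1.27 and 1.46 TPM, against 1.50 and 1.55 TPM (-0.096, SE 0.43), a pattern that 22.6% of all tested genes had, while 0 members had it in the other direction (10.3%). Dazl stood at 248.8 and 373 TPM, against 237 and 268 TPM (0.28, SE 0.34), and Lsm14b at 47.2 and 36.5 TPM, against 18.8 and 46.6 TPM. Ybx2 stood at 83.1 and 28.9 TPM, against 68.2 and 92.1 TPM (-0.68, SE 0.53), and Zfp36l2 was listed at 0.69 and 0.93 TPM, against 0.67 and 0.98 TPM.

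**Figure D5:**
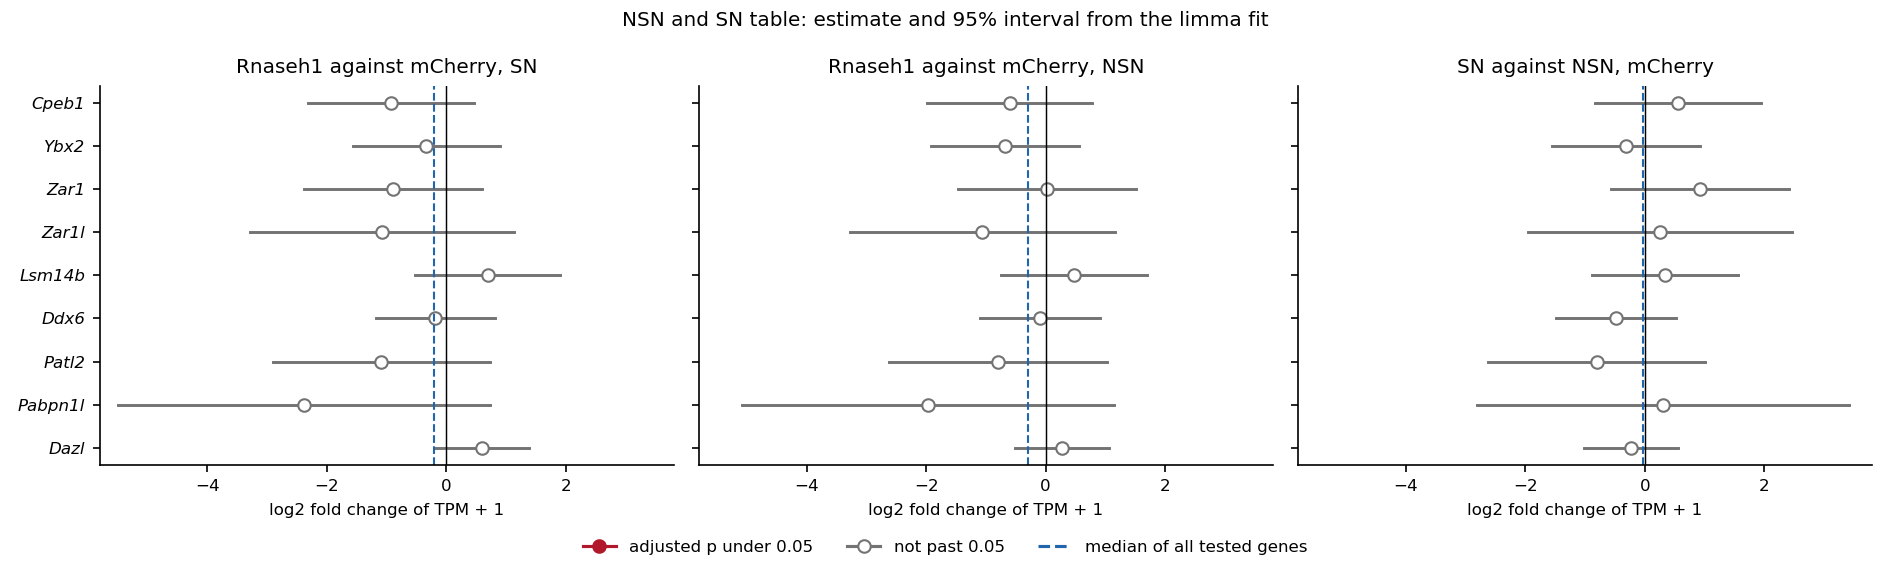
Log2 fold change of TPM + 1 for the 9 tested members in 3 comparisons of the NSN and SN table, with 95% intervals from the limma fit and a dashed line at the median of all tested genes; every point is open because none passed an adjusted p of 0.05. The interval of each member includes 0, and that of Pabpn1l in SN oocytes runs from -5.50 to 0.73.

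Between the stages, the mCherry oocytes gave no separation of most members. SN libraries lay below NSN libraries for Ddx6 (0.35 and 1.43 TPM in SN oocytes, against 1.50 and 1.55 TPM in NSN oocytes, log2 fold change -0.48, SE 0.43) and for Dazl (197 and 234 TPM, against 237 and 268 TPM, -0.23, SE 0.34), a pattern that 19% of all tested genes had (8.43% had the opposite one, and 0 members). The 7 others overlapped, with estimates from -0.81 (Patl2, SE 0.78) to 0.92 (Zar1, SE 0.64). For Zar1 the SN value rested on replicate 2, and without it the estimate was -0.16.

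In the Rnaseh1 oocytes, Patl2 stood at 8.30 and 7.20 TPM in SN oocytes, against 29.3 and 10.6 TPM in NSN oocytes (-1.10, SE 0.78), and Ddx6 at 0.55 and 0.64 TPM, against 1.27 and 1.46 TPM (-0.57, SE 0.43), with libraries that did not overlap, as 12.5% of all tested genes had in this direction. Lsm14b was higher in the SN libraries, at 78.2 and 48.6 TPM against 47.2 and 36.5 TPM (0.56, SE 0.52), beside 14.1% of all genes. The estimates of the 6 others lay between -0.11 (Pabpn1l, SE 1.33) and 0.24 (Cpeb1, SE 0.59).

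The interaction of stage and treatment compares the Rnaseh1 effect in SN oocytes with that in NSN oocytes. For the members it ran from -0.91 for Zar1 (SE 0.90) to 0.34 for Ybx2 (SE 0.75), and for Pabpn1l it was -0.42 with a 95% interval from -4.82 to 3.98. An interval of this width leaves the stage dependence of the members' response undetermined in these libraries. Of the other proteins of the particles, 43 were tested in this table and 0 passed in the 5 comparisons, with 1 or 2 at an unadjusted p under 0.05 in each: in SN oocytes with Rnaseh1 against mCherry these were Cpeb4 (1.04, SE 0.39) and Lsm14a (0.91, SE 0.35), and in NSN oocytes Pabpc1 (-2.09, SE 0.73). Of the 12 stored messages 0 passed, and 0 had an unadjusted p under 0.05 in the 5 comparisons.

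The mCherry controls of the 2 tables were not at the same level in several members. Cpeb1 stood at 562 and 615 TPM in the rescue mCherry libraries, against 128 to 414 TPM in the 4 mCherry libraries of the NSN and SN table, and Pabpn1l at 2091 and 2175 TPM, against 519 to 1886 TPM. Dazl stood at 539 and 419.5 TPM, against 197 to 268 TPM. Zar1 stood lower in the rescue controls, at 195 and 189 TPM, against 358 to 1609 TPM. The tables were normalized separately and were not tested against each other.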

How the data were processed

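Polyadenylated RNA of mouse oocytes was, per the labels' protocols, copied with SuperScript II and amplified with KAPA HiFi before a Vazyme TD503 library preparation. The authors deposited TPM values per gene, in 2 tables of 8 and 6 libraries. Per the submitters' processing notes, which give no roles, mm10 was the genome and the tools were RSEM 1.3.3, STAR 2.7.0d, Trim Galore 0.6.7 and DESeq2. Depth is unknown from TPM, and precision comes from 2 libraries per group only.

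The tables were fitted separately with limma 3.58.1 in R 4.3.3 (lmFit, contrasts.fit, eBayes with a trend) on log2(TPM + 1), over genes with at least 1 TPM in at least 2 libraries, with all groups sharing one spread, two-sided, and a Benjamini-Hochberg adjusted p under 0.05. Fold changes on this scale understate changes of low genes. The script was tested on simulated data. Symbols and coordinates came from GENCODE M21 (34611 identifiers and 34257 symbols matched), promoters from RefSeq (8 of the 10 members matched). All members were named in each comparison, and of each list up to 4 genes per direction with the smallest p. Members and lists were chosen with earlier results of these data known. Alternatives covered the pseudocount, the filter, scaling, GC content, the groups fitted, library weights, the replicate number as a block, and each library left out.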

Additional observations from a re-analysis of the deposited data

Results flagged for a closer look

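Dazl, which encodes a germ cell protein that promotes translation of stored messages, had opposite signs in the 2 sets of Rnaseh1 oocytes. In SN oocytes both Rnaseh1 libraries (291.5 and 359 TPM) lay above both mCherry libraries (197 and 234 TPM), a log2 fold change of 0.59 that did not pass limma's adjusted threshold. In the rescue set both Rnaseh1 libraries (261 and 284 TPM) lay below both mCherry libraries (539 and 419.5 TPM), at -0.80. The second value minus the first is -1.39. This difference was not tested, because the tables were normalized separately and the labels of the rescue set give no stage. After the GC trend was removed, the SN value was 0.11 (SE 0.33). With median centring, the rescue value was -0.22 and did not pass. The mCherry libraries of the rescue set stood above those of the first table (197 to 268 TPM). Dazl was flagged because its libraries did not overlap in either set. Zar1 also had opposite signs, at -0.89 in SN oocytes and 1.19 in the rescue set, but its SN libraries overlapped.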

How the results depend on the processing

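Of the alternatives other than leaving out a library, 664 of 695 values kept their direction and their side of the threshold. Many of these come from the NSN and SN table, where no gene passed as deposited and a change of side was hardly possible. In the rescue set, 89 kept both for Rnaseh1 against mCherry (5 turned sign, 4 lost the call). For Rnaseh1 plus Supt6, 94 did against mCherry (3 lost the call, 1 gained it) and 92 against Rnaseh1 (4 turned sign, 2 lost the call). The 6 members that passed under each scaling in Rnaseh1 against mCherry of the rescue set (Cpeb1, Zar1l, Patl2, Pabpn1l, Zar1, Lsm14b) did so under every alternative run, each library left out included. The number of members past the threshold changed in 4 comparisons. In Rnaseh1 against mCherry of the rescue set it was 8, with 6 under median centring, 7 under quantile normalization, without a filter, with only the groups compared or with library weights, and 7 to 8 with a library left out. In Rnaseh1 plus Supt6 against Rnaseh1 it was 8, with 6 under median centring, 7 under quantile normalization and 6 to 8 with a library left out. In NSN oocytes it was 0, and 0 to 2 with a library left out. In Rnaseh1 plus Supt6 against mCherry it was 4, with 2 when no filter was used and 0 to 4 with a library left out. TPM gives no depth, and 2 libraries per group limit the NSN and SN table.

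Signs turned, with no call in the NSN and SN table, as follows. With median centring, Ddx6 stood at 0.052 (SN Rnaseh1 against mCherry), 0.23 (NSN), 0.19 (rescue Rnaseh1 against mCherry) and -0.33 (Rnaseh1 plus Supt6 against Rnaseh1), Ybx2 at -0.040 (SN against NSN with Rnaseh1) and 0.20 (rescue Rnaseh1), Zar1 at -0.064 (SN against NSN with Rnaseh1) and Dazl at -0.012 (Rnaseh1 plus Supt6 against Rnaseh1). With quantile normalization, in the same order, Ddx6 stood at 0.11, 0.20, 0.21 and -0.32, Ybx2 at -0.088 and 0.074 and Zar1 at -0.087. After removal of the GC trend, Ybx2 stood at 0.61 (SN), 1.33 (rescue Rnaseh1) and -0.74 (Rnaseh1 plus Supt6 against Rnaseh1), Zar1 at 0.026 (SN), Ddx6 at 0.025 (NSN) and Dazl at 0.034 (SN against NSN with mCherry). Beyond the change of scale that each alternative makes, the cause was not tested.

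With a library left out, these ranges crossed 0. For SN Rnaseh1 against mCherry they were -1.98 to 0.19 (Zar1), -0.61 to 0.24 (Ddx6) and -2.24 to 0.059 (Patl2). In NSN oocytes they were -1.42 to 0.067 (Ybx2), -0.042 to 0.084 (Zar1), -2.63 to 0.51 (Zar1l), -0.16 to 1.10 (Lsm14b), -4.29 to 0.35 (Pabpn1l) and -0.016 to 0.57 (Dazl). For SN against NSN with mCherry they were -0.28 to 1.41 (Cpeb1), -0.16 to 2.003 (Zar1), -0.48 to 0.99 (Zar1l), -0.29 to 0.97 (Lsm14b), -1.96 to 0.34 (Patl2) and -0.62 to 1.24 (Pabpn1l). For SN against NSN with Rnaseh1 they were -0.29 to 0.77 (Cpeb1), -0.72 to 0.78 (Ybx2), -0.21 to 0.22 (Zar1), -1.33 to 1.81 (Zar1l), -2.43 to 2.21 (Pabpn1l) and -0.21 to 0.38 (Dazl). For Rnaseh1 plus Supt6 against Rnaseh1 the range was -0.026 to 0.40 (Ddx6). A lone library left in a group was assumed to vary like the other groups.

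The replicate number as a block left 8, 4 and 8 members past the threshold in the rescue comparisons of Rnaseh1 with mCherry, Rnaseh1 plus Supt6 with mCherry and Rnaseh1 plus Supt6 with Rnaseh1, and 0 in the 5 others. Same-numbered libraries deviated together at correlations of 0.17 (NSN Rnaseh1 with NSN mCherry) down to -0.51 (NSN Rnaseh1 with SN mCherry), and with 2 pairs the numbers do not show a pairing. With crossed numbers for SN against NSN with mCherry, a fit chosen after seeing the data, 0 members and 0 genes passed, with 366 genes at an unadjusted p under 0.05, against 237 with the numbers as labelled and 328 without a block.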
